A study of Homo sapiens with 20 samples.

Results

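RNA bound to chromatin was compared between 2 libraries labelled shDrosha and 2 wild type (wt) libraries, which are 4 of the 20 samples of the series. All 4 are labelled HEK293, a human embryonic kidney cell line, and the study's methods name its derivative HEK293T. Following the study's methods, the shDrosha cells received a plasmid that expresses a short hairpin RNA (shRNA) against DROSHA mRNA, by lipid transfection, while the wt cells carry no shRNA. A mock or scrambled-shRNA transfection of wt cells is not described for these libraries, so an effect of the hairpin and an effect of the transfection cannot be told apart. Whether wt and shDrosha cells received doxycycline is not stated. A further 2 libraries labelled shDicer and 2 labelled shAgo2 come from stable lines in which the hairpin was switched on by doxycycline (3 µg/ml, 72 h), and they serve here for direct comparison. The labels number the replicates but do not say that they were separate cultures, so the p-values measure the spread between these libraries, which may be technical.

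Drosha is the nuclear RNase III enzyme of the Microprocessor. With its partner DGCR8 it cuts the hairpin of a primary microRNA (miRNA) transcript on chromatin, and the released precursor is exported, cut by Dicer and loaded into an Argonaute protein such as Ago2. RNA from the chromatin fraction is used as a proxy for nascent RNA. It is rich in unspliced transcripts and in RNAs that stay in the nucleus, such as NEAT1, and it also holds small structured RNAs such as small nucleolar RNAs (snoRNAs).

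The sum of estimated counts was 18222946 and 17484067 in wt replicates 1 and 2 and 19153854 and 18690158 in shDrosha replicates 1 and 2, and between 19663638 and 21553760 in the other libraries. Transcript counts were summed for each gene and expressed as CPM, counts per 1e+06 after scaling of the libraries, and 32874 of 57087 genes had enough counts to test. A gene was called where the adjusted p-value of edgeR's quasi-likelihood test was under 0.05. Replicates lay closer together in wt (median absolute log2 difference 0.0865) than in shDrosha (0.126). In the 4 libraries, 3 counts, the smallest amount taken as measurable, corresponded to between 0.163 and 0.190 CPM. All 12 marker genes listed for HEK293 had counts in every library, but 3 of them were called lower in shDrosha (2.18% of all genes were), namely VIM (511 and 573 CPM in wt, 359 and 262 CPM in shDrosha), NEFM and SIX2. The summed level of the list was 647 and 711 CPM in wt and 486 and 385 CPM in shDrosha, most of it from VIM. Of the 12 markers, 5 had a positive and 7 a negative log2 fold change, with a median of −0.07. Of 20 markers of other cell types, HBB, INS and KRT5 had 0 counts in the 4 libraries, and the summed level of the list was between 117 and 122 CPM in wt and between 122 and 125 CPM in shDrosha.

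DROSHA (ENSG00000113360, GRCh38 chromosome 5, 31400494 to 31532196), the gene that the shRNA targets, was not lower in chromatin RNA of the libraries labelled shDrosha. It had 146 and 153 CPM in wt and 166 and 148 CPM in shDrosha, so the groups overlapped. The log2 fold change was 0.07 (standard error 0.08, adjusted p = 0.697 from edgeR), and 2 standard errors either side span −0.09 to 0.23. The study checked the knockdown by qRT-PCR of steady-state DROSHA RNA, in samples it gives as those used for chromatin RNA sequencing. It also used western blot, and neither check was analysed here. Chromatin RNA does not measure the cytoplasmic mRNA or the protein, so it cannot itself check the knockdown. Below, shDrosha means a library labelled so. Transcripts typed as protein coding gave 104 and 108 CPM of DROSHA in wt and 115 and 105 CPM in shDrosha. DGCR8, whose own mRNA carries a hairpin that Drosha cuts, had 395 and 354 CPM in wt and 358 and 360 CPM in shDrosha (log2 fold change −0.06, standard error 0.08, adjusted p = 0.752). DICER1 had 119 and 124 CPM in wt and 153 and 125 CPM in shDrosha (0.19, standard error 0.09, adjusted p = 0.289). AGO2 had 240 and 255 CPM against 254 and 228 CPM (−0.04, standard error 0.08, adjusted p = 0.858), which also overlapped. Each of the 2 direct contrasts of AGO2 and DICER1 with shAgo2 passed, since AGO2 was higher in shDrosha by 0.58 (standard error 0.08, adjusted p = 0.000173) and DICER1 lower by a log2 difference of −0.59 (standard error 0.09, adjusted p = 0.000342).

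Of the 32874 genes, 392 (1.19%) were called higher and 718 (2.18%) lower in shDrosha than in wt. At an unadjusted p under 0.05 there were 6286. The median log2 fold change was 0.60 among the higher and −0.52 among the lower genes. Only 94 rose and 29 fell by more than 1 on the log2 scale, so the changes were mostly below 2-fold. Protein-coding genes made up 265 of the higher genes (67.6%) and 660 of the lower genes (91.9%). Long non-coding RNAs (lncRNAs) made up 66 and 44. Replicate 1 of shDrosha was the highest of the 4 libraries for 277 of the 392 higher genes. Replicate 2 was the lowest for 388 of the 718 lower genes. Over all tested genes, replicate 1 lay above replicate 2 in 50.6%. The share of calls that were higher was 35.3% and depended on the scale, with 59.3% (768 higher, 527 lower) for library size only, 46.1% (533 and 624) for upper quartile factors and 46.3% (550 and 639) when protein-coding genes set the scale. The counts also depended on single libraries. Without wt replicate 1 they were 26 higher and 46 lower, without wt replicate 2 they were 32 and 58, and without shDrosha replicate 1 they were 129 and 521, where the lone library was assumed to vary like the other groups. With counts scaled from TPM (the length-corrected transcript abundance) they were 62 and 69.

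**Figure D1:**
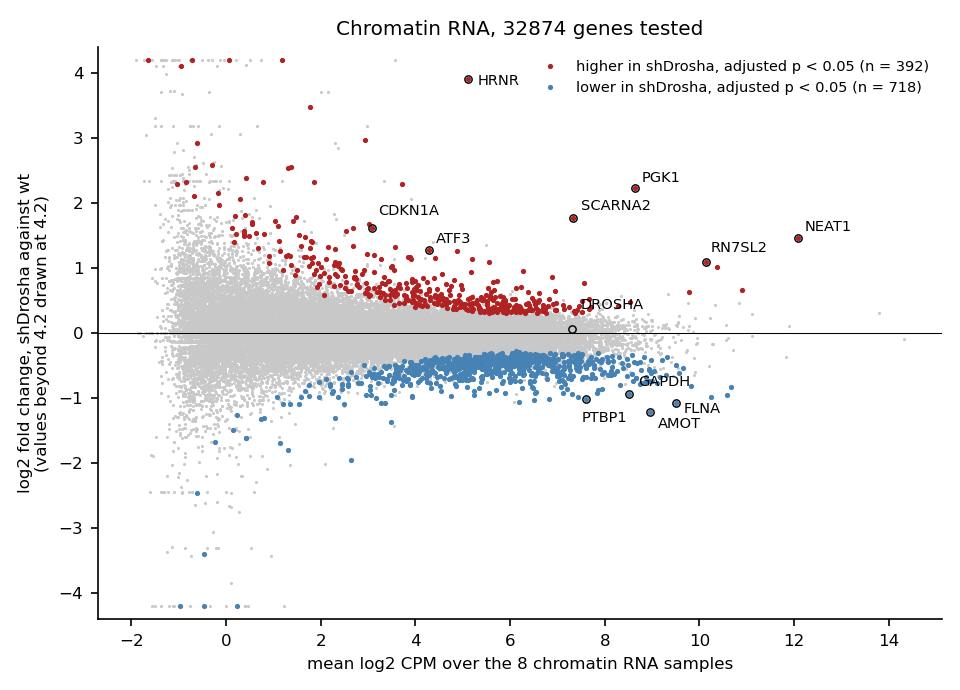
Log2 fold change of shDrosha against wt (y axis) over mean log2 CPM of the 8 chromatin RNA libraries (x axis) for the 32874 genes tested. Red points are the 392 genes called higher and blue points the 718 called lower, grey points were not called, and DROSHA lies at 0.07.

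Several of the groups that rose are small structured RNAs, so the sequences of a pair of them are given before their values, to show 2 related RNAs of 1 host gene that were both called higher. They are H/ACA box snoRNAs, guides of pseudouridylation, from 2 introns of TBRG4 on chromosome 7 (GRCh38, minus strand, chr7:45104349-45104482 and chr7:45104906-45105042). The ACA box, 3 bases from the 3′ end, is in capitals.
SNORA5A: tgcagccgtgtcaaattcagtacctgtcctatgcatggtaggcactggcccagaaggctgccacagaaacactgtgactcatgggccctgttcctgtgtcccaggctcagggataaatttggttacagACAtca
SNORA5C: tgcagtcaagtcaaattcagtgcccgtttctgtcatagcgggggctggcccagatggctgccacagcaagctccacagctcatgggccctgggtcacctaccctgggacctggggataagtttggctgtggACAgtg
These paralogs were identical in 69.2% of aligned bases, and no more than 7.69% of the 31-base stretches of either occur in another gene, so few reads are shared with other genes.

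Small RNAs made by RNA polymerase III were the list with the highest median. All 15 tested members had a positive log2 fold change, with a median of 0.54 against 0.00 over all genes, and 5 (33.3%) were called higher, where the background is 1.19%. RN7SL1 and RN7SL2 are the RNA of the signal recognition particle. RN7SL1 had 926 CPM in both wt libraries and 2193 and 1555 CPM in shDrosha, which is 1.02 on the log2 scale (standard error 0.16, adjusted p = 0.00807). RN7SL2 had 713 and 702 CPM in wt and 1801 and 1220 CPM in shDrosha (1.09). The copy RN7SL3 had 16.4 and 15.9 CPM in wt and 44.4 and 32.8 CPM in shDrosha (1.26, standard error 0.14, adjusted p = 0.0018). In each of these 3 copies, as in all 392 genes called higher, the shDrosha libraries lay above both wt libraries. Replicate 1 of shDrosha was above replicate 2. These copies share between 72.9 and 100% of their 31-base stretches with other genes, so the division of reads among them is uncertain. RN7SK, which holds the elongation factor P-TEFb inactive, rose from 1237 and 1500 CPM to 2494 and 1824 CPM (0.66). RPPH1, the RNA of ribonuclease P, rose from 83.3 and 89.9 CPM to 178 and 136 CPM (0.86). All 31-base stretches of RN7SK and RPPH1 also occur in other genes, so the division of their reads is uncertain too. The Y RNA RNY1 had the largest value of the list, 1.55, and was not called. The summed level of the list was 3766 and 4042 CPM in wt and 7952 and 5714 CPM in shDrosha. It was also above wt in shDicer (5163 and 6508 CPM) and shAgo2 (4775 and 5338 CPM). Directly against shDicer, RN7SL1 passed, and RN7SL2, RN7SL3, RN7SK and RPPH1 did not. Against shAgo2, RN7SL1, RN7SL2 and RPPH1 passed, and RN7SL3 and RN7SK did not. Without shDrosha replicate 1 the list gave 3 calls, with the replicate block 3 and with counts scaled from TPM 2.

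Spliceosomal and U7 snRNAs behaved alike in sign. All 18 tested members were positive with a median of 0.43, and 4 were called higher (22.2%, against 1.19% of all genes). The U5 snRNA of the spliceosome was called in 3 copies. RNU5A-1 had 10.4 and 11.9 CPM in wt and 20.4 and 18.1 CPM in shDrosha (log2 fold change 0.78, standard error 0.12, adjusted p = 0.00807). RNU5B-1 rose from 14.8 and 17.4 CPM to 30.2 CPM in both shDrosha libraries (0.91). RNU5F-1, at 1.90 and 1.89 CPM in wt, had 5.37 and 3.37 CPM in shDrosha (1.20). RNU12, the U12 snRNA of the minor spliceosome, rose from 5.57 and 5.94 CPM to 11.5 and 11.1 CPM (0.97). In the abundant U2 gene RNU2-2P the values were 551 and 630 CPM in wt and 1077 and 720 CPM in shDrosha (0.60, adjusted p = 0.053), which missed the threshold. All 31-base stretches of RNU12 and RNU2-2P also occur in other genes. The share was 39.5% for RNU5A-1, 38.4% for RNU5B-1 and 12.6% for RNU5F-1, so the division of reads is uncertain here as well. Without shDrosha replicate 2, 11 of the list were called, and without replicate 1 there were 3 and the median was 0.26. The replicate block and counts scaled from TPM each gave 3.

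Among snoRNAs, 23 of 309 tested were called higher (7.44%), and among small Cajal body RNAs (scaRNAs), which guide modification of snRNAs, 4 of 24 (16.7%). Over all genes the share was 1.19%. By name, H/ACA snoRNAs gave 17 of 121 (14.0%) and C/D box snoRNAs 3 of 82 (3.66%). In neither biotype was a member called lower by edgeR or DESeq2, where 2.18% of all genes were lower by edgeR. At an unadjusted p under 0.05, 4 snoRNAs and 1 scaRNA were lower. SCARNA2 (chromosome 1, 109100193 to 109100612) had 92.6 and 102 CPM in wt and 409 and 259 CPM in shDrosha. It rose by 1.78 on the log2 scale (standard error 0.29, adjusted p = 0.00977), the largest rise of the 27 called. All of its 31-base stretches also occur in other annotated genes, so the division of its reads is uncertain, and the gene it lies in, ENSG00000270066, had a log2 fold change of −0.48 (adjusted p = 0.157). SCARNA7 rose from 9.67 and 12.4 CPM to 30.7 and 19.1 CPM (1.17). SNORA5A had 5.63 and 5.62 CPM in wt and 15.0 and 10.8 CPM in shDrosha (1.20, standard error 0.18, adjusted p = 0.00705), and its neighbour SNORA5C had 10.8 and 8.65 CPM and then 25.5 and 17.6 CPM (1.15). The most abundant snoRNA, SNORA73A, had 1757 and 2017 CPM in wt and 2872 and 2318 CPM in shDrosha, which missed the threshold (0.46, adjusted p = 0.051). All of its 31-base stretches also occur in other genes.

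Most snoRNAs are cut out of introns of a host transcript. Of the 27 snoRNAs and scaRNAs called higher, 26 lie inside a gene on the same strand, in 24 different genes, called hosts here. Hosts were taken by position alone, and it was not checked that each RNA lies in an intron. None of these 24 hosts was called higher by edgeR, where 1.19% of all genes were, so with so few hosts this is near that share. The 2 called lower, where 2.18% of all genes were, are EIF4A1 (−0.62), which contains SNORA48 and SNORA67, and RPL10 (−0.52), which contains SNORA70. All 31-base stretches of SCARNA2, SNORA61, SNORA62 and SNORA71A also occur in other genes, so the division of their reads is uncertain. The host medians centred on −0.07 (range −0.62 to 0.31). TBRG4, the host of SNORA5A and SNORA5C, had a value of −0.01. SNORD13, which has its own promoter, was the only one without a host, and rose by 0.95 (18.3 and 24.3 CPM in wt, 42.4 and 39.5 CPM in shDrosha). Replicate 1 of shDrosha was above replicate 2 for 26 of the 27. Without replicate 1 the number of snoRNAs called higher was 8 and of scaRNAs 1, and without replicate 2 it was 35 and 5. With counts scaled from TPM it was 8 and 1, and with the replicate block 11 and 3.

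**Figure D2:**
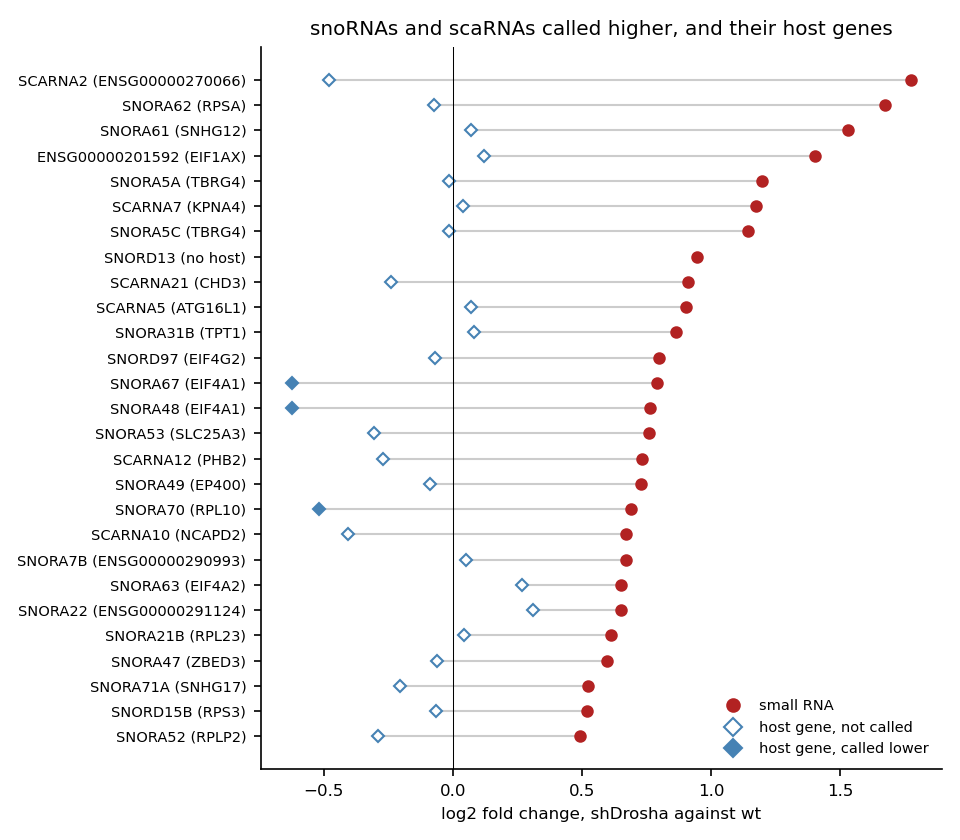
Log2 fold change of shDrosha against wt (x axis) for the 27 snoRNAs and scaRNAs called higher (red circles, one per line) and for the gene each lies in (diamonds, filled where called lower, open where not called). The small RNAs lie between 0.49 and 1.78 and the hosts between −0.62 and 0.31.

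As a share of all counts, snoRNAs were 0.510 and 0.578% in wt and 0.815 and 0.700% in shDrosha. The shares of snRNAs were 0.534 and 0.628% and then 0.946 and 0.728%, and those of scaRNAs 0.0149 and 0.0161% and then 0.0497 and 0.0354%. The groups did not overlap in these 3 biotypes, nor in 6 others, which makes 9 of 14. Annotated miRNA hairpins had 0.527 and 0.594% in wt and 0.560 and 0.506% in shDrosha, which overlapped. lncRNAs took 14.3 and 14.1% against 15.2 and 15.1%, and protein-coding genes 81.5 and 81.6% against 79.5 and 79.9%. With 2 libraries a group, an exact permutation test cannot go below a two-sided p of 0.333, so the shares were not tested. The library protocol of the labels is one for mRNA, and RNAs as short as snRNAs and snoRNAs may be recovered unevenly by it.

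Primary miRNA transcripts are what Drosha cuts. Of 64 tested miRNA host genes, 4 were called higher (6.25%, against 1.19% of all genes) and 1 lower (1.56%, against 2.18%), with a median of 0.03. Mature miRNAs from 4 of these 5 hosts, not MIR124-1HG, are printed with the seed, bases 2 to 8 from the 5′ end, in capitals, to show which share targets (RefSeq, GRCh38.p14).
hsa-let-7i-5p: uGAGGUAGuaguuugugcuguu
hsa-let-7c-5p: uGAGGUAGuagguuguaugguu
hsa-miR-99a-5p: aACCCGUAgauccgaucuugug
hsa-miR-125b-5p: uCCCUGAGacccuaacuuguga
hsa-miR-4435: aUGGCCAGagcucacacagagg
hsa-miR-210-3p: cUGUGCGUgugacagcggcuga
let-7i and let-7c have the same seed. MIRLET7IHG (chromosome 12, 62602752 to 62622213), the host of let-7i, had 38.2 and 41.9 CPM in wt and 57.4 and 56.2 CPM in shDrosha (0.51, standard error 0.09, adjusted p = 0.0128). The counts on the let-7i hairpin itself were 5 and 6 in wt and 9 and 11 in shDrosha. MIR99AHG on chromosome 21, which carries let-7c, miR-99a and miR-125b-2, rose from 5.40 and 6.50 CPM to 10.7 and 9.69 CPM (0.78). MIR4435-2HG on chromosome 2 rose from 21.0 and 19.9 CPM to 41.6 and 37.9 CPM (0.96, standard error 0.09, adjusted p = 0.000946). MIR124-1HG had 0.889 and 1.39 CPM in wt and 2.63 and 2.99 CPM in shDrosha (1.31). MIR210HG, the host of the hypoxia-induced miR-210, fell by 1.62 on the log2 scale (1.66 and 3.35 CPM in wt, 0.742 and 0.871 CPM in shDrosha). Host genes at much higher levels were not called, among them MIR17HG, which carries the miR-17 to 92 cluster, with 204 and 227 CPM in wt and 278 and 198 CPM in shDrosha. MIR663AHG, the most abundant, had 20390 and 20383 CPM in wt and 23417 and 15016 CPM in shDrosha. With counts scaled from TPM only MIR4435-2HG still passed.

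Of 360 tested hairpins none was called by edgeR or DESeq2, and at an unadjusted p under 0.05 there were 24 higher and 9 lower. Over all 32874 genes, 1.19% were called higher and 2.18% lower by edgeR, and 6286 passed the unadjusted threshold in either direction. The 18 genes of miRNA export, dicing and Argonautes gave no call by either tool (5 higher and 1 lower at the unadjusted threshold). Of 18 Microprocessor genes and cofactors, 3 were called lower, where the background is 2.18% over all genes and 3.96% over protein-coding genes. KHSRP, which binds let-7 precursors, fell from 133 and 138 CPM to 78.4 and 73.2 CPM, by 0.84 on the log2 scale (standard error 0.08, adjusted p = 0.000946). SRRT (ARS2) fell by 0.31. Of 25 let-7 target genes (median 0.03), IGF2BP2 alone was called (4%, where 1.19% of all genes were called higher). It rose from 51.5 and 50.9 CPM to 65.1 and 68.4 CPM (0.38). Of 19 targets of the miR-17 to 92 family (median 0.08), 2 were called higher and 2 lower. Each is 10.5%, where 1.19% of all genes were higher and 2.18% lower. CDKN1A and RBL1 rose (1.62 and 0.31) and STAT3 and ANKRD52 fell by 0.52 and 0.36.

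PGK1 (chromosome X, 77910739 to 78129295), a glycolytic kinase, showed the largest rise of an abundant gene. It had 210 and 232 CPM in wt and 1131 and 937 CPM in shDrosha, and 175 and 160 CPM on average in shDicer and shAgo2. The log2 fold change was 2.23 (standard error 0.15, adjusted p = 0.000211), a 4.68-fold rise. Direct contrasts gave 2.56 against shDicer (standard error 0.15) and 2.69 against shAgo2 (standard error 0.16). The rise fell on 1 transcript. PGK1-201, the coding transcript of 4887 bases, had 2562 and 2540 counts in wt and 19659 and 17078 in shDrosha, while the short PGK1-205 of 702 bases had 664 and 702 counts in wt and 0 in both shDrosha libraries. Of the 31-base stretches of PGK1-205, 92.3% are also in PGK1-201. With counts scaled from TPM, which weigh a short transcript more, the log2 fold change of PGK1 was 0.49 and was not called (adjusted p = 0.165).

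NEAT1 (chromosome 11, 65422774 to 65445540), the lncRNA that builds nuclear paraspeckles, rose from 700 and 776 CPM to 2291 and 1794 CPM. Its log2 fold change was 1.47 (standard error 0.13, adjusted p = 0.000715). Nearly all of it was on the long form of 22743 bases, with 11802 and 12279 counts in wt and 40134 and 32957 in shDrosha. In shDicer and shAgo2 it reached between 6382 and 8182 CPM, above shDrosha by 1.91 and 1.73 on the log2 scale. MALAT1, the neighbouring nuclear lncRNA, rose from 815 and 836 CPM to 1388 and 1165 CPM (0.63, standard error 0.10, adjusted p = 0.00807). The paraspeckle protein gene NONO fell by 0.69.

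Of 33 immediate early genes, 6 were called higher (18.2%, against 1.19% of all genes). ATF3, a stress-induced transcription factor, had 11.1 and 11.7 CPM in wt and 29.9 and 25.3 CPM in shDrosha (1.27, standard error 0.15, adjusted p = 0.0018). NR4A3 rose by 0.79, DUSP5 by 0.69 and KLF10 by 0.56. EGR1 and FOS, chosen after their values were seen, had values of 1.28 and 0.93 and were not called. Of 25 p53 target genes, 3 were called higher, where the background is 1.19%, and 19 were positive, where 16694 of all 32874 genes were. CDKN1A, the cell cycle inhibitor p21, had 2.96 and 2.59 CPM in wt and 7.65 and 9.42 CPM in shDrosha (1.62, standard error 0.17, adjusted p = 0.00168). GADD45A rose from 9.13 and 11.8 CPM to 19.6 and 17.8 CPM (0.84) and ZMAT3 from 18.4 and 20.5 CPM to 29.8 and 27.3 CPM (0.55). PPP1R15A (GADD34), which reverses the translation block of the stress response, rose by 0.73. Of the 34 genes of its list, however, 5 fell (14.7%, against 2.18% of all genes and 3.96% of protein-coding genes). Among these HYOU1, a chaperone of the endoplasmic reticulum, fell from 173 and 191 CPM to 97.9 and 81.4 CPM, by 1.02 on the log2 scale (standard error 0.10, adjusted p = 0.00139). The heat shock gene HSPA6, at 0.949 and 1.07 CPM in wt, had 3.37 and 2.50 CPM in shDrosha (1.53), and 57.1% of its 31-base stretches occur in other genes. HSP90AA1 fell by 0.63. It was 1 of 4 called lower of the 27 heat shock genes (14.8%, against 2.18% of all and 3.96% of protein-coding genes). HSPA6 was one of 3 called higher (11.1%, against 1.19%), with DNAJB4 (0.50) and DNAJB2 (0.48). Without shDrosha replicate 1, immediate early genes gave 1 call and heat shock genes 10 lower and 0 higher.

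Interferon-stimulated genes, which are induced when a cell senses foreign nucleic acid, gave no call among 42 tested, by edgeR or by DESeq2. Over all genes 1.19% were called higher and 2.18% lower by edgeR, so no call among 42 is near those shares. At an unadjusted p under 0.05, 1 interferon-stimulated gene was higher and 3 were lower, where 6286 of all 32874 genes passed in either direction. The median log2 fold change of the interferon-stimulated genes was −0.01, and their summed level was 728 and 733 CPM in wt and 741 and 714 CPM in shDrosha. Of 20 nucleic acid sensors (median −0.16) and 16 early targets of NF-kB (median 0.10) neither tool called any. At the unadjusted threshold 7 sensors were lower and 1 NF-kB target higher. STAT2, among the best expressed interferon-stimulated genes, had 93.4 and 92.2 CPM in wt and 92.6 and 88.0 CPM in shDrosha. The gene of the mitochondrial antiviral adaptor MAVS had 259 and 256 CPM in wt and 207 and 228 CPM in shDrosha (−0.24, adjusted p = 0.12).

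Mitochondrially encoded RNAs were all positive, 31 of 31, with a median of 0.37, and 5 were called higher (16.1%, against 1.19% of all genes). MT-CYB had 251 and 292 CPM in wt and 380 CPM in both shDrosha libraries (0.48, standard error 0.09, adjusted p = 0.018), and MT-ND1 had 75.5 and 86.5 CPM and then 111 and 120 CPM (0.51). With counts scaled from TPM, and with the replicate block, 1 was called. These transcripts are made outside the nucleus, and their summed level was 4605 and 5058 CPM in wt and 5874 and 5841 CPM in shDrosha. It was also above wt in shDicer (6465 and 5751 CPM) and in shAgo2 (7500 and 7629 CPM). Whether these levels reflect the purity of the fraction was not tested.

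**Figure D3:**
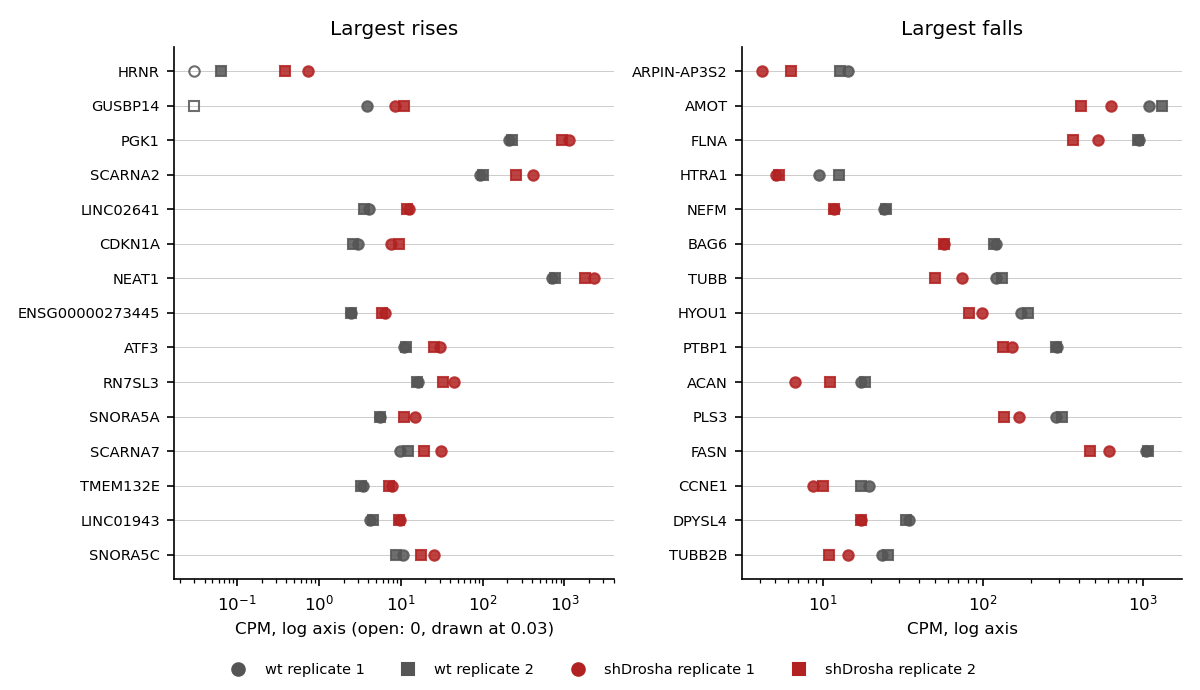
CPM on a log axis in each of the 4 libraries for the 15 genes with the largest rise (left) and the 15 with the largest fall (right), with circles for replicate 1 and squares for replicate 2, grey for wt, red for shDrosha and open marks for libraries at 0. Genes were chosen among called genes, none of which had overlapping groups, such as PGK1 (210 to 232 against 937 to 1131 CPM) and FLNA (937 to 941 against 365 to 522 CPM).

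Other large rises were those of LINC02641 (4.09 and 3.60 CPM in wt, 12.7 and 11.9 CPM in shDrosha, 1.67), TMEM132E (1.17), LINC01943 (1.15) and the non-coding ENSG00000273445 (1.32). GUSBP14, a pseudogene, had 3.85 and 0 CPM in wt and 8.51 and 10.9 CPM in shDrosha, and all of its 31-base stretches occur in other genes. HRNR, a keratinocyte gene, had 0 and 1 counts in wt and 13 and 7 in shDrosha. The ratio is 18.2, with a 95% exact interval from 2.92 to 755 that covers counting error only. In the shDicer and shAgo2 libraries HRNR had between 65.3 and 70.1 CPM, so the level in shDrosha was lower than there by 6.88 and 6.95 on the log2 scale. Those libraries also gave HRNR the mean level that placed it among the largest rises. PCF11-AS1 had 0 counts in wt, shDicer and shAgo2 and 12 and 18 counts in shDrosha, at least 4.53-fold above the wt floor of 3 counts per library. It passed the count filter only through the shDrosha libraries, so its call is partly a result of that selection. Of 1436 tested antisense lncRNAs, 13 were higher (0.905%) and 14 lower (0.975%), both below the shares over all genes, 1.19% and 2.18%.

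FLNA (chromosome X, 154348524 to 154374634), an actin crosslinker, had 941 and 937 CPM in wt and 522 and 365 CPM in shDrosha, a fall of 1.08 on the log2 scale (standard error 0.14, adjusted p = 0.00339). AMOT, a regulator of the YAP pathway, fell from 1083 and 1315 CPM to 626 and 412 CPM, by 1.21. It was still lower in shDicer (65.5 CPM on average) and shAgo2 (213 CPM). PTBP1, a splicing repressor, had 289 and 288 CPM in wt and 152 and 133 CPM in shDrosha, a fall of 1.02 (standard error 0.08, adjusted p = 0.000659). BAG6, a chaperone, had 121 and 117 CPM in wt and 56.9 and 57.0 CPM in shDrosha, a fall of 1.06. FASN, fatty acid synthase, fell from 1037 and 1082 CPM to 609 and 465 CPM, by 0.98, and was higher in shDicer and shAgo2 than in shDrosha by 1.48 and 1.72. The tubulin genes TUBB and TUBB2B fell by 1.02 and 0.97, the neurofilament gene NEFM by 1.07 and the cyclin gene CCNE1 by 0.98. ARPIN-AP3S2 fell by 1.36, but 96.9% of its 31-base stretches occur in other genes.

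Of 22 glycolytic enzymes and transporters tested, 12 were called lower (54.5%) and 2 higher, PGK1 and ENO2. The share called lower was 2.18% over all genes and 3.96% over protein-coding genes. GAPDH (chromosome 12, 6534512 to 6538374) had 438 and 469 CPM in wt and 273 and 201 CPM in shDrosha, a fall of 0.93 (standard error 0.15, adjusted p = 0.00807). ENO1 fell from 980 and 1084 CPM to 706 and 461 CPM, by 0.82. ALDOA fell by 0.86 and LDHB by 0.79. In each of these 4, replicate 2 of shDrosha was the lowest library. ENO2, the neuronal enolase, rose from 15.8 and 15.5 CPM to 21.9 and 21.4 CPM (0.47). The number lower was 4 without shDrosha replicate 2, 5 with the replicate block and 1 with counts scaled from TPM.

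Over all genes 2.18% were called lower, over protein-coding genes 3.96% and over the most highly expressed group of these, by TPM, 7.62%, which are the backgrounds for the next lists. Of 37 genes of actin crosslinking and focal adhesion, 8 fell (21.6%), among them PLEC (0.87), ACTN4 (0.70) and TLN1 (0.67), and the integrin gene ITGA5 rose by 0.43. Of 25 genes of cholesterol synthesis and uptake 5 fell, with DHCR7 (0.69) among them, and of 15 of fatty acid synthesis 3 fell, FASN, ACLY (0.74) and FADS2 (0.32). Of 30 genes of G2 and M phase 6 fell, with CCNB1 (0.77) and CDC20 (0.58), and of 32 of S phase 4 fell, with CCNE1 and MCM2 (0.69), while RFC3 rose by 0.62. Of 38 HOX genes 7 fell (18.4%), with HOXB8 (0.77) and HOXB9 (0.62). With counts scaled from TPM, at most 1 gene of each of these 6 lists was called lower, and without shDrosha replicate 2 there were 4 lower calls in the actin list, 2 in cholesterol, 3 in G2 and M phase and 1 in S phase. Without replicate 1 the HOX genes gave 3. Replication-dependent histone genes had the lowest median, −0.50, and 46 of 52 were negative, but H3C12 was the only one called, falling by 0.97. Their summed level was 1631 and 1765 CPM in wt and 1426 and 970 CPM in shDrosha. Cytosolic ribosomal protein genes had 1 call, RPL10, among 83.

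**Figure D4:**
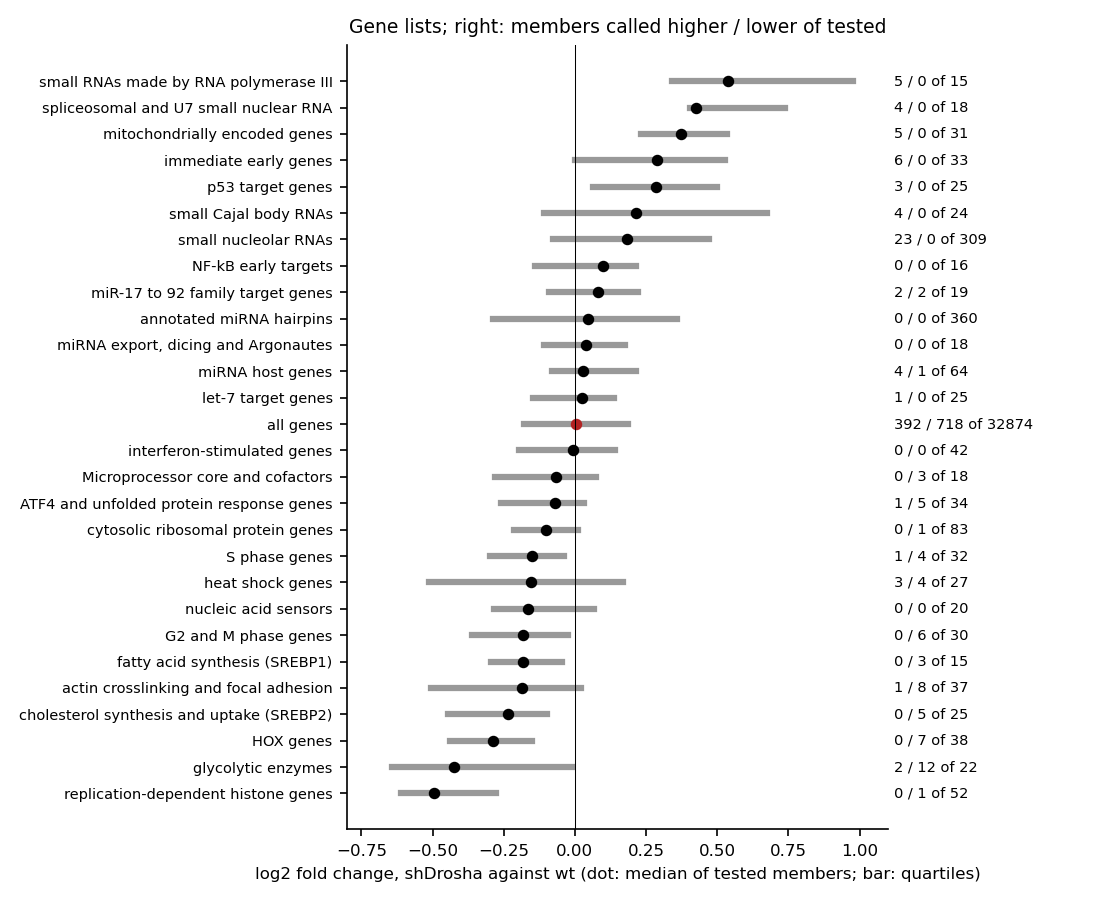
Median (dot) and quartiles (bar) of the log2 fold change of shDrosha against wt (x axis) over the tested members of each gene list, with all genes in red and, at the right, the members called higher, called lower and tested. Medians run from 0.54 for small RNAs made by RNA polymerase III to −0.50 for replication-dependent histone genes.

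Within several genes called lower, the estimated counts of the transcripts differed by unequal amounts. Transcripts typed protein coding were compared with transcripts of the same gene typed retained intron or coding sequence not defined. This split was chosen after the data were seen and was not tested. Transcripts of the same gene can share sequence, so the division of reads between these kinds is uncertain. For PGK1 the estimates gave log2 fold changes of 2.71 for coding and −2.97 for other transcripts. Whether the differences below reflect that division was not tested. HYOU1 had 145 and 163 CPM of coding transcripts in wt and 72.5 and 52.1 CPM in shDrosha, whereas its other transcripts had 16.0 CPM in both wt libraries and 15.4 and 17.5 CPM in shDrosha. ENO1 had 785 and 888 CPM and then 512 and 264 CPM of coding transcripts, against 195 and 196 CPM and then 194 and 198 CPM of the others. In FASN the coding transcripts had 1015 and 1062 CPM in wt and 589 and 443 CPM in shDrosha, and the others had 21.6 and 18.4 CPM and then 19.4 and 22.2 CPM. VIM differed in sign, with 419 and 478 CPM and then 238 and 151 CPM of coding transcripts, and 38.6 and 42.8 CPM and then 54.5 CPM in both shDrosha libraries of the others. AMOT, NEFM and CCNE1 were lower in both kinds of transcript. Among 479 genes called lower that had at least 1 CPM of each kind, the median log2 fold change was −0.58 for coding and −0.26 for other transcripts, and coding transcripts were the lower of the pair in 411 (85.8%). Since coding transcripts hold most of the counts that led to the call, the same was computed for all 9217 protein-coding genes with both kinds. There the medians were −0.06 and 0.02, and coding transcripts were the lower in 62.8%. In shDrosha replicates 1 and 2 taken alone, the medians over these genes were −0.04 and −0.09 for coding transcripts. Among 163 genes called higher, the medians over both shDrosha libraries were 0.45 for coding and 0.43 for other transcripts.

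**Figure D5:**
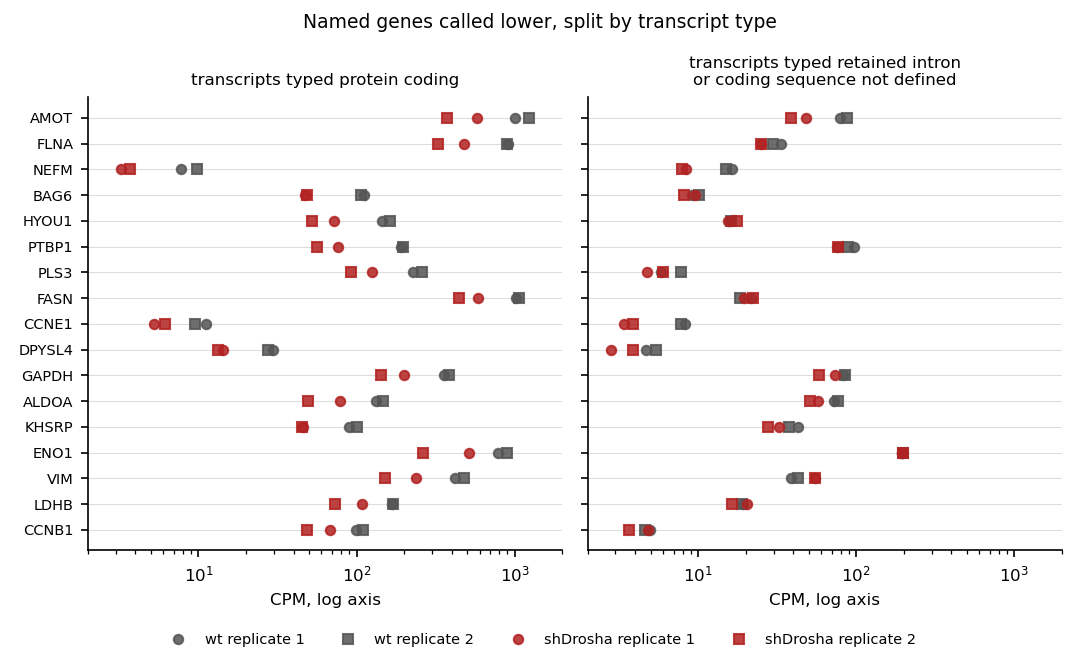
CPM on a log axis of transcripts typed protein coding (left) and of transcripts typed retained intron or coding sequence not defined (right) for named genes called lower, in wt (grey) and shDrosha (red), with circles for replicate 1 and squares for replicate 2. The genes were called on the sum of their transcripts, mostly those on the left, and on the right the groups overlap or lie close for genes such as HYOU1, FASN and ENO1.

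The calls also differed with gene span and with expression level, 2 further descriptions made after the data were seen. Protein-coding genes were divided into 5 equal groups by the length of the gene on the genome. In the shortest group, up to 10019 bases, 0.810% were called higher and 5.01% lower, and the median log2 fold change was −0.10. In the longest group, from 102350 bases, 3.45% were higher and 1.77% lower, and the median was 0.07. By mature transcript length the group medians only ranged from −0.03 to −0.01. By mean TPM, the share called lower was 0.840% in the lowest and 7.62% in the highest group, and the share called higher between 1.35 and 1.74%. More counts in a gene also make a call easier. On chromosome 19, 94 of 1949 genes (4.82%) were lower and 4 higher, with a median of −0.11, and the medians were −0.10 on chromosome 22 and −0.09 on chromosome 16.

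The libraries labelled shDrosha differed far more from shDicer and shAgo2 than from wt. Against shDicer, 5722 genes (17.4%) were higher and 6091 (18.5%) lower in shDrosha, and against shAgo2, 6101 (18.6%) and 6316 (19.2%). Of the 392 genes higher than wt, 126 were also higher than both other groups and 71 were lower than both. Of the 718 genes lower than wt, 190 were lower than both and 137 higher than both. These contrasts share the shDrosha libraries, so the counts are a description. PGK1, SCARNA2, MALAT1, LINC02641 and MIRLET7IHG were among those above the other 3 groups, and NEAT1, MIR4435-2HG and ENSG00000273445 were above wt but below shDicer and shAgo2. CDKN1A did not pass against shDicer (0.01, standard error 0.14, adjusted p = 0.96) and was lower than in shAgo2 by 0.60. BAG6 and KHSRP, lower than wt, did not pass against either (differences between −0.15 and 0.13, standard errors 0.12 and 0.08).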

How the data were processed

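The authors quantified the reads with the pseudoaligner kallisto, strand-specifically, against Ensembl cDNA and non-coding RNA sequences, and deposited an estimated (expected) count and a TPM for each transcript and library. The deposited estimated counts are not normalized, and the deposited TPM is corrected for transcript length by the authors' tool. Intronic reads are counted only where a listed transcript covers them. How reads were filtered is not given in the sources used here.

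Transcripts were assigned to genes by identifier in GENCODE release 44 (GRCh38; hg38 per the labels). Of 217082 transcripts, 193697 (89.2%) matched and carried between 93.4 and 94.0% of counts. Counts were summed per gene and rounded, which left 32874 genes after filterByExpr. All 8 chromatin libraries were fitted together in edgeR 4.0.16 (R 4.3.3) with a term per group, TMM factors (0.968 to 1.05), no block and Benjamini-Hochberg adjustment. The common biological coefficient of variation was 0.0739. The standard error was taken as the absolute log2 fold change over the square root of F. The threshold of 0.05 is the one the study used for shDrosha, with DESeq2, which was run here as an alternative (version 1.42.0). The procedure was tested on simulated data.

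The members and gene lists were chosen with earlier results of these data known. Named genes are DROSHA, DGCR8, DICER1 and AGO2, the 15 largest rises and falls among called genes whose libraries did not overlap and whose mean log2 CPM was at least 3, up to 4 called members per list and direction (or the 2 most abundant where none was called), the 4 most abundant members of each small RNA biotype and the tested miRNA host genes. Other genes named were chosen after their values were seen. Shared sequence was measured as the percent of a gene's 31-base stretches found in another gene of the annotation. List symbols SNAR-A1, RN5S1 and RNY5 had no match, and DDX58 is an older name that was not matched. Some items are not reported here.

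Replicate numbers were checked for pairing. Deviations from the group mean in wt and shDrosha had a correlation of −0.324 between libraries of the same number over 15841 genes (and 0.324 between different numbers), so the numbers were not taken to pair the libraries. Alternatives were other scalings, filters and sample sets, a replicate block, TPM-scaled counts, unmatched transcripts kept, stricter thresholds and each library left out.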

Additional observations from a re-analysis of the deposited data

How the results depend on the processing

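Beside the counts given above, DESeq2 gave 254 higher and 730 lower genes, omission of the filter 520 and 1120, the replicate block 137 and 315, unmatched transcripts kept as features 127 and 271, and an adjusted p under 0.005 gave 26 and 58. A log2 fold change beyond 1 left 94 and 29. TPM-scaled counts gave 62 and 69, of which 49 and 64 were also called in the main comparison, and scaling by library size only gave 768 higher. With 1 library left out, the counts ranged from 26 to 429 higher and from 46 to 552 lower, lowest without a wt library. Same-numbered libraries deviated in opposite directions, and a block with crossed numbers on the 4 libraries, chosen after seeing the data, called 2263 and 3111, where the block as numbered called 317 and 561. The scale set by protein-coding genes was also added then. The cause of these differences was not tested. Genes that differed from shDicer, 11813, became 7829 with DESeq2, 6734 at 0.005 and 3458 beyond a log2 difference of 1, and the 12417 from shAgo2 became 7203 and 3812 under the last pair. DROSHA ranged from −0.0174 (without shDrosha replicate 1) to 0.1511 over single omitted libraries, the DGCR8 log2 fold change from −0.1360 to 0.0218 (the latter without wt replicate 1) and the AGO2 log2 fold change from −0.1177 to 0.0400 (the latter without shDrosha replicate 2, and 0.0078 without wt replicate 2), with AGO2 at 0.0131 by library size only. Of 147 named called genes none reversed under any alternative, 80 remained called under the replicate block, 107 in DESeq2 and 35 with TPM-scaled counts. ATF3, BAG6, ENSG00000273445, FLNA, HYOU1, NEAT1, PTBP1 and RN7SL3 were called under all 19 alternatives.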

Other observations

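In the inducible lines, 8 genes were measured at 20 CPM or more in all 4 shDicer and shAgo2 libraries and below 0.2 CPM in both wt libraries, namely ANOS1, ARHGEF5, FLG, HRNR, MGMT, YPEL4, ENSG00000283269 and ENSG00000290606. In the libraries labelled shDrosha these genes stood at between 0 and 0.960% of the mean level of the inducible lines, and HRNR alone was called higher than wt. MGMT, a DNA repair gene, had 0 counts in wt and shDrosha and between 38.0 and 43.7 CPM in the inducible lines. PEG10, a retrotransposon-derived gene, had 0.296 and 0.758 CPM in wt, 0.457 and 0.327 CPM in shDrosha and 124 and 164 CPM on average in shDicer and shAgo2. SLFN11 and LCP1 had 0.571 and 0.544 CPM and 2.23 and 2.40 CPM in shDrosha, not called against wt, and at least 86.5 CPM on average in each inducible line.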
